A study of Sus scrofa with 16 samples.

Results

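Differentiated satellite cells (SCs) of dystrophic (DMD) piglets were compared with those of wild-type (WT) piglets across all counted genes. The comparison holds the 4 DMD and the 4 WT samples labelled as differentiation (DIFF), 8 of the 16 samples of the series, 1 sample per animal. The question was which transcripts differ between the genotypes once the cells are differentiated. The DMD pigs carry a deletion of exon 52 of the DMD gene, and the piglets were male and 3 days old. SCs were freed from intercostal muscle, depleted of CD31+ and CD45+ cells and enriched with antibodies to integrin β1, NCAM1 and M-cadherin. At passage 6 they were kept in medium with 5% horse serum, for 10 days according to the sequencing methods and 7 days according to the culture methods. Proliferating (PROL) samples of the same animals, grown with 20% fetal bovine serum and basic fibroblast growth factor, serve below only where the genotype effect is compared between the states. As a model, the cells are an expanded culture without nerve, load or neighbouring fibers. The labels name neither litter nor date of isolation, so that these cannot be told apart from genotype.

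SCs are the stem cells of skeletal muscle. On activation they turn on the myogenic factors MYF5, MYOD1 and then MYOG, leave the cell cycle, fuse and assemble sarcomeres, in which myosin thick filaments slide along actin thin filaments anchored at the Z-disc. Dystrophin, the product of DMD, ties the actin cytoskeleton through a membrane complex of sarcoglycans and dystroglycan to the matrix around the fiber, and its loss causes Duchenne muscular dystrophy.

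The libraries tagged the 3′ ends of polyadenylated RNA and held 1572180 to 1762968 counts in WT and 1434476 to 1781174 in DMD. Levels are given as CPM, a gene's share of the library's counts scaled to a fixed total, after TMM scaling, in the order of replicates 1 to 4 (n = 4 per genotype), or as the lowest and highest library joined by a dash. TMM factors of the levels came from all 16 libraries, and those of the DIFF fold changes from the 8 DIFF libraries. Correlations of log2 CPM ran from 0.971 to 0.975 between WT libraries, 0.970 to 0.976 between DMD libraries and 0.871 to 0.894 across genotypes. The 18S ribosomal RNA gene RN18S took 7.40% to 10.1% of the counts in WT and 6.94% to 11.7% in DMD. The deposited table lists 3875 genes, of which 821 had no count in the 8 libraries, and a gene outside the table was not analysed here. Of 1916 genes tested with edgeR's quasi-likelihood test, 643 (33.6%) were called, that is, had a Benjamini-Hochberg adjusted p below 0.05 and an absolute log2 fold change above 0.6. The call was higher in DMD for 308 genes (16.1%) and lower for 335 (17.5%). These shares are the background for every group count below, beside a median log2 fold change of -0.03 over all tested genes. For 868 genes (45.3%) the 4 DMD values lay entirely above or entirely below the 4 WT values. This held for 289 of the 308 genes called higher and for 300 of the 335 called lower. Lack of overlap therefore adds little to a call, and part of the rule for naming genes asks for it. Scaling to library totals alone moved the median by 0.136 upward on the log2 scale and turned the share of higher calls from 47.9% to 59.2% (387 higher and 267 lower).

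**Figure D1:**
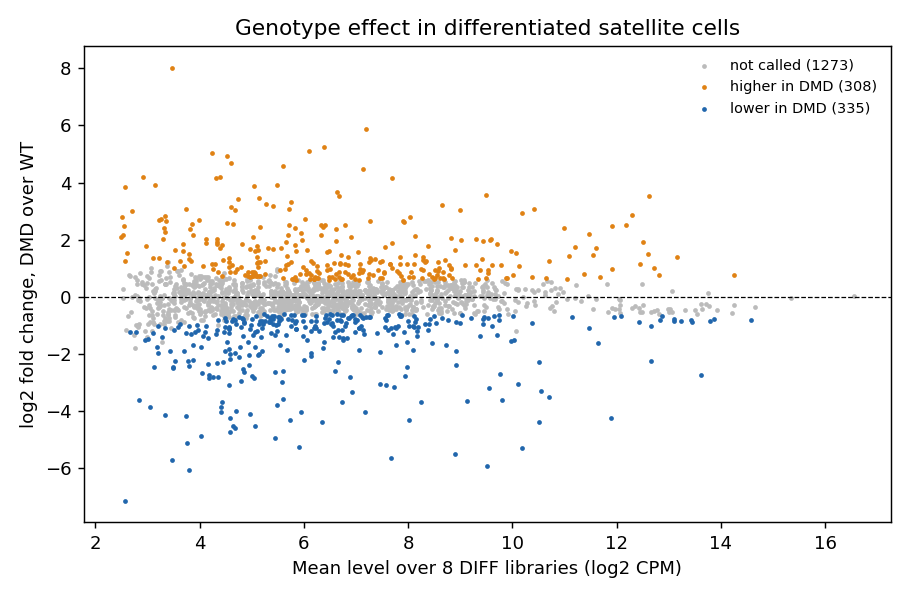
Genotype effect in DIFF for 1916 tested genes. The horizontal axis is the mean level over the 8 libraries (log2 CPM), the vertical axis the log2 fold change of DMD over WT; orange points are the 308 genes called higher, blue points the 335 called lower, grey points the rest. Called genes of both directions occur over the whole range of levels.

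DMD itself, the deleted gene, was read in every library. WT libraries held 8.26, 16.2, 11.7 and 12.3 CPM and DMD libraries 33.6, 28, 21.6 and 25.6 CPM. All DMD values lay above the WT values (log2 fold change 1.16, SE 0.31, edgeR adjusted p = 0.00503). A 3′ tag lies outside exon 52, so that this level checks neither the deletion nor the labels. With the first technical column alone DMD was not called (edgeR adjusted p = 0.053). Of the dystrophin-associated complex 5 genes were tested, DMD included, 2 of them higher and 1 lower. SGCA, the muscle-specific α-sarcoglycan, was at 38.6, 39.8, 53.1 and 46.3 CPM in WT and 64.5, 117, 114 and 108 CPM in DMD (log2 fold change 1.17, SE 0.20, edgeR adjusted p = 1.43e-04). SGCE, ε-sarcoglycan of broader expression, moved the other way, from 353, 432, 422 and 388 CPM in WT to 147, 196, 209 and 142 CPM in DMD (log2 fold change -1.20, SE 0.13, edgeR adjusted p = 1.02e-06). Neither overlapped between the genotypes, although the first DMD replicate stood well below the other 3 for SGCA. SGCB and SGCD were not called.

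The identity of the cells was read from their markers. Of the myogenic transcription factors, 10 were tested, 3 called higher and 2 lower (median log2 fold change 0.46). MYOG, which drives terminal differentiation, was at 1.38, 4.42, 11.7 and 4.09 CPM in WT and 51.9, 38.5, 46.1 and 45.6 CPM in DMD (log2 fold change 3.03, SE 0.40, edgeR adjusted p = 9.17e-06). The lowest DMD library held 3.30 times the highest WT library, and without WT replicate 3, the highest of its group, the log2 fold change was 3.75. MEF2C, a partner of the MYOG family, had 44.1, 42.8, 29.8 and 58.6 CPM in WT and 188, 121, 95.1 and 118 CPM in DMD (log2 fold change 1.57, SE 0.23, edgeR adjusted p = 4.20e-05), again without overlap. MYF5, which marks committed SCs, had no count in any WT library and 12.6, 4.67, 1.44 and 8.55 CPM in the DMD libraries. Its 40 counts against none were too few for the test. With the empty group set to a floor of 3 counts, the DMD level was at least 14.3-fold higher. Here and below such a bound uses counts summed over 4 libraries and leaves out the spread between animals. The related MYOD1 and MYF6 were close to the limit of counting, with 4 counts each in WT and 16 and 22 in DMD, summed over 4 libraries. KLF5, a zinc finger factor, rose from 5.51–20.6 to 39.7–49.1 CPM (log2 fold change 1.83, SE 0.32, edgeR adjusted p = 1.44e-04). ID1, an inhibitor of the myogenic factors, fell from 187–273 to 92.2–119 CPM (log2 fold change -1.27, SE 0.14, edgeR adjusted p = 1.32e-06). With libraries scaled to their totals, the counts in this group became 5 higher and 1 lower.

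Transcripts of the sarcomere were higher in nearly every tested member. All 5 tested genes of the thick filament were higher in DMD, with a median log2 fold change of 3.46, as were 9 of 10 of the thin filament (2.18) and 8 of 9 of the Z-disc and costamere (2.38). The deposited data held 9, 12 and 18 genes of these lists, the others having too few counts for the test. A gene with enough counts in 1 genotype alone was tested. MYH1, MYBPH and CSRP3, low in WT, passed in this way through their DMD libraries, which favours higher calls among tested members. Summed over the thick filament list, WT libraries reached 1871 to 3180 CPM and DMD libraries 12150 to 16240 CPM. The thin filament list gave 5182 to 8388 CPM in WT and 27370 to 31600 CPM in DMD. No summed value overlapped between the genotypes. In such bulk libraries, more muscle-like cells and more RNA per cell cannot be told apart.

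Among thick filament genes, the regulatory light chain named MLC2V in the table (MYL2) was at 116, 128, 89.4 and 117 CPM in WT and 1142, 1362, 1365 and 1437 CPM in DMD (log2 fold change 3.55, SE 0.12, edgeR adjusted p = 7.91e-13). The fast skeletal light chain MYLPF was at 1383, 999, 1457 and 1676 CPM and 8306, 7131, 6908 and 9226 CPM (log2 fold change 2.51, SE 0.15, edgeR adjusted p = 4.54e-09). MYL1, the essential light chain, was at 938, 736, 1029.7 and 1375 CPM and 5345, 4145, 3715 and 5450.0 CPM (log2 fold change 2.19, SE 0.19, edgeR adjusted p = 4.23e-06). The lowest DMD library held 8.91, 4.12 and 2.7 times the highest WT library for MLC2V, MYLPF and MYL1. The adult fast heavy chain MYH1 was nearly silent in WT, at 4.13, 2.95, 2.59 and 5.45 CPM, and reached 144, 87.5, 95.1 and 44.2 CPM in DMD (log2 fold change 4.58, SE 0.39, edgeR adjusted p = 2.20e-07). A second fast heavy chain, MYH2, had no count in WT and 5.61, 9.34, 2.88 and 7.12 CPM in DMD. It was not tested. Its 38 counts in all put the DMD level at least 13.6-fold higher with the empty group at 3 counts. MYBPH, a myosin-binding protein, rose from 2.73–11.7 to 57.6–82.7 CPM (log2 fold change 3.46, SE 0.35, edgeR adjusted p = 5.14e-07), and without WT replicate 3 its log2 fold change was 4.08. All counts in the table are even numbers. If each stood for a pair, the bounds of MYF5 and MYH2 would be 7.15-fold and 6.79-fold.

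The thin filament carried the actins, tropomyosins and troponins. Cardiac α-actin, ACTC1, the actin of early myotubes, was at 1033, 840.3, 1208 and 1778 CPM in WT and 8654, 8062, 7639.6 and 10833 CPM in DMD (log2 fold change 2.85, SE 0.24, edgeR adjusted p = 9.75e-06). Skeletal α-actin, ACTA1, was at 1222, 712, 1093 and 1230.4 and 3093, 4068, 4002 and 3278 CPM (log2 fold change 1.76, SE 0.16, edgeR adjusted p = 1.52e-06). Slow and embryonic troponins rose with them. TNNI1 went from 51.6–104 to 559–839 CPM (log2 fold change 3.22, SE 0.18, edgeR adjusted p = 1.57e-08), TNNT1 from 236–405 to 980.3–1539.8 CPM and TNNT2 from 36.9–85.4 to 373–571 CPM, with log2 fold changes of 1.98 and 2.78. CFL2, the muscle cofilin that trims actin filaments, rose from 828–1218 to 2228–2489 CPM (log2 fold change 1.26). TPM3, a slow tropomyosin also made in non-muscle cells, was the only tested member that was not called. It overlapped between the genotypes, and the other thin filament genes named here did not.

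At the Z-disc, desmin (DES), the intermediate filament of muscle, was at 253, 224, 220.2 and 386 CPM in WT and 1806, 2079.7, 2205 and 2137 CPM in DMD (log2 fold change 2.92, SE 0.16, edgeR adjusted p = 1.05e-08). The ankyrin repeat protein named CARP in the table (ANKRD1), a stretch-responsive partner of titin, was at 275, 248, 247 and 376 CPM and 2125, 2600.2, 2552 and 2483 CPM (log2 fold change 3.08, SE 0.14, edgeR adjusted p = 4.77e-11). The lowest DMD library held 4.68 times the highest WT library for DES and 5.65 times for CARP. CSRP3, a mechanosensor at the Z-disc, rose from 2.59–13.6 to 63.4–96.9 CPM (log2 fold change 3.18, SE 0.32, edgeR adjusted p = 6.38e-07), and ACTN2, the α-actinin that crosslinks thin filaments, from 31.0–49.1 to 128–181 CPM (log2 fold change 1.94, SE 0.18, edgeR adjusted p = 2.07e-07). CMYA5, a costameric protein, was the member that fell, with a log2 fold change of -2.73; it lies outside the rule for named genes and was picked after its value was seen.

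**Figure D2:**
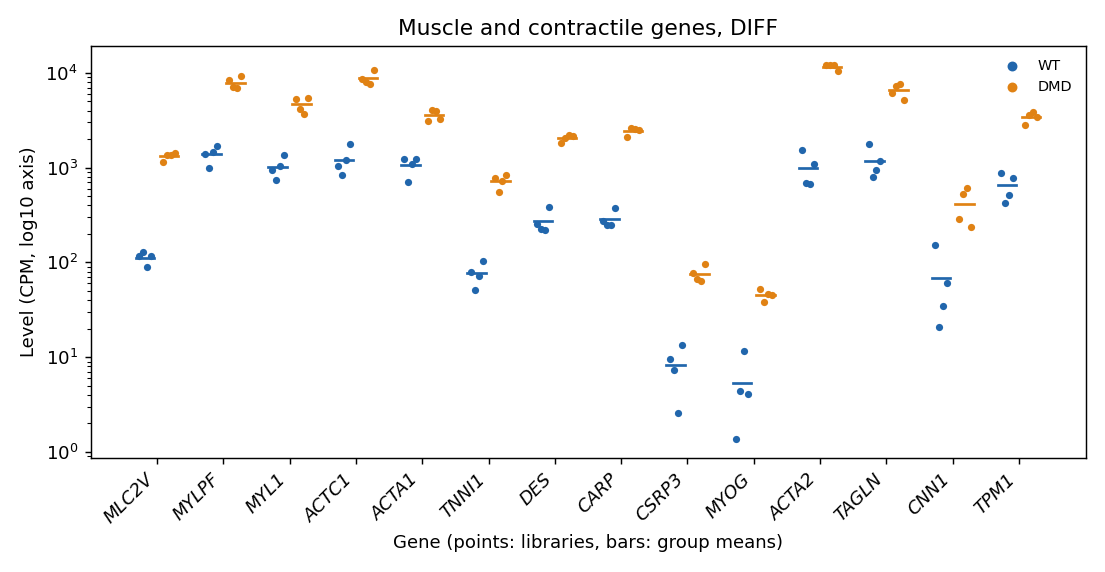
Level in each DIFF library of selected muscle and contractile genes, all of them called higher in DMD. Each point is 1 library (WT blue, DMD orange, 4 per genotype) on a log10 axis of CPM, and the short bar is the group mean. For every gene shown the 4 DMD points lie above the 4 WT points, as for MLC2V with a log2 fold change of 3.55 and ACTA2 with 3.54.

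Calcium handling and muscle energy metabolism followed in part. Of 5 tested genes of excitation and calcium handling, 2 were higher and none lower. RYR1, the calcium release channel, was near the limit of counting at 2.59 to 4.42 CPM in WT and 8.55 to 18.2 CPM in DMD (log2 fold change 1.79, SE 0.45, edgeR adjusted p = 0.0037), and CACNA2D1, a subunit of the voltage sensor, went from 54.5–89.5 to 137–175 CPM (log2 fold change 1.14, SE 0.16, edgeR adjusted p = 1.63e-05). SLN, sarcolipin, an inhibitor of the calcium pump, was at 35.8, 19.2, 32.4 and 32.7 CPM in WT and at 32.2, 113, 69.2 and 21.4 CPM in DMD. These values overlapped and the gene was not called (edgeR adjusted p = 0.14), but it was called without DMD replicate 4 (log2 fold change 1.26, edgeR adjusted p = 0.0149), with the first technical column alone (edgeR adjusted p = 0.0197) and with the DESeq2 test (adjusted p = 0.0329). Of 7 genes of muscle energy metabolism, 4 were higher and 1 lower. PGAM2, the muscle phosphoglycerate mutase, was at 68.9, 56.0, 55.7 and 80.4 CPM in WT and 469, 375, 367 and 433 CPM in DMD (log2 fold change 2.65, SE 0.14, edgeR adjusted p = 1.67e-10). FITM1, which packs lipid droplets in muscle, rose from 0–3.89 to 26.6–71.2 CPM (log2 fold change 4.21, SE 0.55, edgeR adjusted p = 1.20e-05). ENO3, the muscle enolase, rose from 8.85–38.2 to 62.7–115 CPM (log2 fold change 1.90, SE 0.41, edgeR adjusted p = 0.00264). COX7A1, the muscle form of a cytochrome oxidase subunit, fell from 212–269 to 125–175 CPM (log2 fold change -0.81, SE 0.13, edgeR adjusted p = 7.79e-05).

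Genes of the smooth muscle and contractile cytoskeleton list, which shares TPM1, TPM2 and DES with the sarcomere lists above, rose in every tested member. All 10 were called higher, with a median log2 fold change of 2.21 and summed levels of 4610 to 9109 CPM in WT against 31820 to 40290 CPM in DMD. Smooth muscle α-actin, ACTA2, was at 1551, 681, 679 and 1083 CPM in WT and 12090.4, 11996, 12208 and 10349 CPM in DMD (log2 fold change 3.54, SE 0.29, edgeR adjusted p = 2.57e-05). TAGLN, transgelin, an actin-binding protein, was at 1769, 805, 939 and 1185 CPM and 6073, 7191, 7583 and 5232 CPM (log2 fold change 2.47, SE 0.26, edgeR adjusted p = 6.94e-05). The first WT replicate was the highest of its group for both, and still fell far short of the lowest DMD value. CNN1, calponin, an inhibitor of myosin ATPase, was at 154, 20.6, 35.0 and 61.3 CPM in WT and 287, 533, 604 and 236 CPM in DMD (log2 fold change 2.61, SE 0.65, edgeR adjusted p = 0.0163). Without WT replicate 1 the log2 fold change of CNN1 was 3.40, and with replicate numbers as a block it was 2.72 and lost the call (edgeR adjusted p = 0.0883). TPM1 rose from 420.1–880.2 to 2831–3879.6 CPM, TPM2 from 1794–3377 to 7728–10927 CPM and TPM4 from 315–512 to 886–1071 CPM, tropomyosins shared by striated, smooth and non-muscle cells, with log2 fold changes of 2.40, 1.93 and 1.32.

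Several of these genes also stand for pericytes and vascular smooth muscle. Of that marker list 6 of 14 genes were in the table, and the 5 tested (ACTA2, TAGLN, CNN1, DES and ANPEP) were all higher, with a sum of 1745 to 3753 CPM in WT and 18010 to 22670 CPM in DMD. RGS5, a pericyte marker outside the contractile lists, was at 1.38, 7.37, 9.07 and 5.45 CPM in WT and 1.40, 0, 10.1 and 5.70 CPM in DMD, with overlap and too few counts for the test. MYOCD, the coactivator that defines smooth muscle, had 2 counts in WT and 4 in DMD. Whether such cells contribute to the higher contractile transcripts was not tested.

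The wider actin cytoskeleton rose in part. Of 21 tested genes of actin dynamics and focal adhesion, 10 were higher and 2 lower (median log2 fold change 0.47). Thymosin β4, TMSB4X, which holds actin monomers, was at 5800.3, 4392, 5143 and 4860.3 CPM in WT and 12232, 14268, 13749 and 13074 CPM in DMD (log2 fold change 1.39, SE 0.10, edgeR adjusted p = 1.19e-08). MSN, moesin, a linker of actin to the membrane, was at 509.6, 470.3, 459 and 553 CPM and 1484, 1479.8, 1693 and 1390.3 CPM (log2 fold change 1.59, SE 0.10, edgeR adjusted p = 1.23e-09). PFN1, profilin, which feeds actin growth, was at 1064 to 1322 CPM in WT and 2886 to 3561 CPM in DMD (log2 fold change 1.42, SE 0.10, edgeR adjusted p = 7.98e-09). In all 3 the genotypes were separated by more than the spread within either. VCL, vinculin, an anchor of focal adhesions and costameres, rose from 455–543 to 879–1313 CPM (log2 fold change 1.13, SE 0.12, edgeR adjusted p = 1.09e-06), and STMN1, a regulator of microtubules, from 57.9–129 to 233–340.4 CPM (log2 fold change 1.75, SE 0.21, edgeR adjusted p = 1.67e-05). ITGB1, the β1 integrin of most matrix receptors and a target of the cell selection, was at 3788, 3402, 3458 and 3126 CPM in WT and 7415, 7608, 8748 and 7275 CPM in DMD (log2 fold change 1.16, SE 0.09, edgeR adjusted p = 4.46e-08). ITGB3, a vitronectin receptor subunit, was lower, at 27.5 to 50.1 against 3.50 to 18.7 CPM (log2 fold change -1.75, SE 0.37, edgeR adjusted p = 9.13e-04). At the cell surface, CD82, a tetraspanin of SCs, rose from 17.9–34.1 to 82.1–191 CPM (log2 fold change 2.46, SE 0.27, edgeR adjusted p = 2.74e-06) and VCAM1, an adhesion molecule of fusing myoblasts, fell from 396–596 to 7.00–47.6 CPM (log2 fold change -4.30, SE 0.41, edgeR adjusted p = 8.13e-05).

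Called members of the glycolysis list were all higher. Of 11 tested genes 7 were called higher and none lower, with a median log2 fold change of 0.78. LDHA, which makes lactate, was at 1636, 1365, 1895 and 1432 CPM in WT and 3166, 4231, 6113 and 4212 CPM in DMD (log2 fold change 1.48, SE 0.18, edgeR adjusted p = 4.19e-05). The third replicate was the highest in both genotypes, and the lowest DMD library held 1.67 times the highest WT library. GAPDH rose from 2213–2774 to 3578–4415 CPM (log2 fold change 0.69, SE 0.10, edgeR adjusted p = 2.76e-05), TPI1 from 417–486 to 706–1039 CPM and PGK1 from 694–832 to 1041–1613 CPM, with log2 fold changes of 0.95 and 0.78. At the entry to the citric acid cycle the kinases that switch off pyruvate dehydrogenase moved in opposite directions. PDK1, induced by low oxygen, was at 31.7, 28, 22.0 and 13.6 CPM in WT and 105, 146, 163 and 131 CPM in DMD (log2 fold change 2.51, SE 0.22, edgeR adjusted p = 1.35e-07), while PDK4, induced by fasting and glucocorticoids, was at 84.0, 98.8, 172 and 114 CPM and 0, 5.84, 2.88 and 2.85 CPM (log2 fold change -5.25, and -5.90 without DMD replicate 2). Neither overlapped between genotypes. FBP1, the gluconeogenic bisphosphatase, was at 16.4 to 25.9 CPM in WT and had a count in 1 DMD library only (log2 fold change -5.72, SE 0.66, edgeR adjusted p = 2.18e-06), with -7.99 without that library. MDH2, a dehydrogenase of the cycle, rose from 226–277 to 411–456 CPM (log2 fold change 0.80, SE 0.09, edgeR adjusted p = 3.00e-06). Over the 16 tested genes of the cycle and of pyruvate, 4 were higher and 2 lower.

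Oxidative phosphorylation showed smaller shifts, with 6 of 27 genes higher and 1 lower and a median of 0.37. With libraries scaled to their totals, 10 were higher. CYCS, cytochrome c, was at 309, 257, 271 and 307 CPM in WT and 1024, 1048, 1186 and 1161 CPM in DMD (log2 fold change 1.94, SE 0.10, edgeR adjusted p = 1.10e-10). The other 5 stayed under 2-fold, such as NDUFA8 of complex I, from 239.7–266 to 431–526 CPM, and ATP5G3 of the ATP synthase, from 1185–1273 to 1711–2197 CPM, with log2 fold changes of 0.93 and 0.67. Genes of fatty acid use split evenly, 6 higher and 6 lower of 24. FABP5, a fatty acid carrier, rose from 28.9, 10.3, 13.0 and 12.3 CPM in WT to 122, 126, 251 and 255 CPM in DMD (log2 fold change 3.53, SE 0.40, edgeR adjusted p = 7.08e-05), and LIPG, an endothelial-type lipase, from 0–2.73 to 41.3–52.5 CPM (log2 fold change 4.69). HADHA, the mitochondrial β-oxidation enzyme, fell from 404–479 to 208–252 CPM (log2 fold change -0.95, SE 0.10, edgeR adjusted p = 6.08e-07). Of 16 genes of sterol synthesis and uptake none was higher and 3 were lower (median -0.47). HMGCS1, at the start of the route, was at 114 to 135 CPM in WT and 59.1 to 89.9 CPM in DMD (log2 fold change -0.82, SE 0.15, edgeR adjusted p = 3.24e-04).

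Targets of hypoxia split. Of 14 tested genes, 6 were higher and 3 lower, with a median of 0.78. VEGFA, the vessel growth factor, was at 11.0, 19.2, 19.4 and 17.7 CPM in WT and 36.4, 57.2, 66.3 and 49.9 CPM in DMD (log2 fold change 1.63, SE 0.26, edgeR adjusted p = 7.55e-05), and DDIT4, an inhibitor of mTOR, at 185 to 231 and 366 to 502 CPM (log2 fold change 0.99, SE 0.12, edgeR adjusted p = 3.31e-06). Against these, ADM, adrenomedullin, a vasodilator peptide and a classic hypoxia target, was at 2796, 2362, 3059 and 2599.8 CPM in WT and 234, 303, 324 and 254 CPM in DMD (log2 fold change -3.28, SE 0.12, edgeR adjusted p = 2.23e-12). The lowest WT library held 7.28 times the highest DMD library. Its receptor-modifying partner RAMP2 fell as well, from 35.8–59.0 to 5.70–10.5 CPM (log2 fold change -2.54, SE 0.29, edgeR adjusted p = 2.36e-06), whereas RAMP1, which gives the receptor for the calcitonin gene-related peptide, was at 3.89 to 28.9 CPM in WT and 231 to 323 CPM in DMD (log2 fold change 4.47, and 5.36 without WT replicate 1).

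Called members of the cytosolic ribosomal protein list were all lower. Of 45 tested cytosolic ribosomal proteins none was higher and 12 were lower, with a median log2 fold change of -0.48. The fold change was negative for 44 of 45, and for 42 of 45 with libraries scaled to their totals, where the median was -0.34. Together these genes took 36.6% to 40.2% of all counts in the WT libraries and 27.8% to 31.4% in the DMD libraries. RPL10 was at 8143, 9181, 9448 and 8011 CPM in WT and 4039, 4116, 4396 and 4594 CPM in DMD (log2 fold change -1.03, SE 0.09, edgeR adjusted p = 1.37e-07). RPS20 was at 29457, 34529.8, 30888 and 29610.2 CPM and 17211, 17396, 17641 and 19979 CPM (log2 fold change -0.79, SE 0.09, edgeR adjusted p = 2.73e-06), and RPL11 at 17125 to 21472 and 10619 to 11916 CPM (log2 fold change -0.78, SE 0.09, edgeR adjusted p = 3.74e-06). No library of one genotype entered the range of the other for these 3 genes. Among 14 translation factors 1 was higher and 4 lower, and only 1 was lower with libraries scaled to their totals. EEF1A1, which brings aminoacyl-tRNA to the ribosome, was at 18309.9, 20537, 18519.6 and 14984 CPM in WT and 10525, 9782, 9558 and 10765 CPM in DMD (log2 fold change -0.84, SE 0.10, edgeR adjusted p = 4.17e-06), and EEF1B2, its exchange factor, at 8053 to 10063 and 5217 to 6129 CPM (log2 fold change -0.68, SE 0.10, edgeR adjusted p = 1.89e-05), a call of EEF1B2 lost with libraries scaled to their totals. The 1 that rose was EIF4EBP1, the brake on cap-dependent translation, at 161, 192, 111 and 127 CPM in WT and 388, 394, 458 and 403 CPM in DMD (log2 fold change 1.47, SE 0.14, edgeR adjusted p = 5.14e-07). Many ribosomal protein genes have processed pseudogenes, and the counting could not separate near-identical copies.

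Of the oxidative stress and selenoprotein list, called members were lower. Of its 24 tested genes none was higher and 8 were lower, with a median of -0.28; 1 became higher when any of 5 of the 8 libraries was left out. CAT, catalase, which destroys hydrogen peroxide, was at 3739.7, 2491, 2556 and 3453 CPM in WT and 263, 298, 274 and 251 CPM in DMD (log2 fold change -3.50, SE 0.14, edgeR adjusted p = 1.34e-11). SEPP1, the selenium carrier selenoprotein P, was at 1332, 1657, 1598 and 1972 CPM and 112, 96.9, 122 and 208 CPM (log2 fold change -3.62, SE 0.25, edgeR adjusted p = 2.66e-06). TXNIP, which binds thioredoxin and limits glucose uptake, was at 979, 1144, 1188 and 811 CPM and 79.9, 79.4, 93.7 and 81.2 CPM (log2 fold change -3.63, SE 0.13, edgeR adjusted p = 1.23e-12). The lowest WT library held 8.37, 6.4 and 8.65 times the highest DMD library for CAT, SEPP1 and TXNIP. FTL, the ferritin light chain, fell less, from 12509.7–15586 to 7027–8709 CPM (log2 fold change -0.82, SE 0.10, edgeR adjusted p = 3.60e-06). Enzymes that clear aldehydes, steroids and foreign compounds fell in 7 of 11 tested genes and rose in 1 (median -0.85). ALDH2, the mitochondrial aldehyde dehydrogenase, was at 368, 473, 433 and 435 CPM in WT and 88.3, 75.9, 44.7 and 39.9 CPM in DMD (log2 fold change -2.78, SE 0.22, edgeR adjusted p = 8.36e-07). EPHX1, an epoxide hydrolase, was at 128 to 184 and 51.3 to 63.1 CPM (log2 fold change -1.52, SE 0.15, edgeR adjusted p = 5.43e-07). FMO1, a flavin monooxygenase, had 4.13, 13.3, 22.0 and 47.7 CPM in WT and no count in DMD. Like MYF5 it was not tested. Its 128 counts against none, summed over 4 libraries, put it at least 39.8-fold lower in DMD with the empty group at 3 counts. The WT libraries spread widely, and this bound does not cover that spread. AKR1B1, aldose reductase, rose from 5.90–13.6 to 22.4–41.3 CPM (log2 fold change 1.87, SE 0.35, edgeR adjusted p = 2.66e-04).

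Genes that respond to glucocorticoids and FOXO factors moved both ways, 4 higher and 6 lower of 14. SGK1, a kinase induced by glucocorticoids, had 790.2 to 1064 CPM in WT and 17.3 to 23.8 CPM in DMD (log2 fold change -5.50). TRIM63, the muscle ubiquitin ligase MURF1 known from atrophy, was at 2.75, 0, 2.59 and 2.73 CPM in WT and 37.8, 33.8, 31.7 and 48.4 CPM in DMD (log2 fold change 4.15, SE 0.45, edgeR adjusted p = 1.12e-06). FBXO32, atrogin-1, the ligase usually named with it, was at 66.1, 42.8, 41.4 and 46.3 CPM and 28, 31.5, 14.4 and 34.2 CPM (log2 fold change -0.86, SE 0.27, edgeR adjusted p = 0.0136), and lost the call without WT replicate 1 (log2 fold change -0.69, edgeR adjusted p = 0.0571). The ligases thus differed in direction, and neither overlapped between the genotypes. GADD45G, a stress-induced growth arrest gene, rose from 11.0–24.5 to 74.1–106 CPM (log2 fold change 2.52, SE 0.25, edgeR adjusted p = 3.80e-07), and BTG1, an antiproliferative factor, from 442–590.0 to 905–1061 CPM (log2 fold change 0.95, SE 0.10, edgeR adjusted p = 1.22e-06).

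Complement had a lower median than any other list. Of 8 tested genes 7 were lower and 1 higher, with a median log2 fold change of -3.58. The list took 1.57% to 2.45% of the counts in WT and 0.268% to 0.376% in DMD. SERPING1, the inhibitor of C1, was at 1800.3, 2499, 2480.4 and 2236 CPM in WT and 54.7, 52.5, 56.2 and 68.4 CPM in DMD (log2 fold change -5.29, SE 0.14, edgeR adjusted p = 2.45e-14). C4, the scaffold of the classical convertase, was at 355, 383, 504 and 356 CPM and 7.01, 9.34, 5.76 and 9.97 CPM (log2 fold change -5.62, SE 0.19, edgeR adjusted p = 6.79e-13). CLU, clusterin, a secreted chaperone that blocks the membrane attack complex, was at 15249, 24703, 24660.5 and 22749.6 CPM and 3764, 2682, 3256 and 3644 CPM (log2 fold change -2.72, SE 0.16, edgeR adjusted p = 9.84e-09). The lowest WT library held 26.3, 35.6 and 4.05 times the highest DMD library for SERPING1, C4 and CLU. C2 fell from 72.2–134 to 1.44–8.41 CPM (log2 fold change -4.32, SE 0.32, edgeR adjusted p = 2.01e-08) and CFB, its counterpart in the alternative pathway, from 15.0–41.3 to 2.88–7.01 CPM (log2 fold change -2.84, SE 0.42, edgeR adjusted p = 2.88e-05). CD55, which dissolves convertases, fell from 17.7–86.8 to 0–4.67 CPM (log2 fold change -4.57, SE 0.74, edgeR adjusted p = 4.42e-04, log2 fold change -5.58 without DMD replicate 2). C3, the central component, had 31.7, 51.6, 15.5 and 5.45 CPM in WT and none in DMD. It was not among the 8 tested genes. Its 148 counts against none put it at least 46.0-fold lower with the empty group at 3 counts. With counts halved the bounds of C3 and FMO1 would be 23-fold and 19.9-fold. The member that rose was CD59, which blocks the membrane attack complex on the cell surface, with a log2 fold change of 2.10; it lies outside the rule for named genes and was picked after its value was seen.

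Cytokines and antigen presentation were lower for most called members. Of 16 tested cytokines, chemokines and receptors, 3 were higher and 10 lower (median -1.19). IL6ST, the signal chain gp130 shared by the interleukin-6 family, was at 847, 729.7, 693 and 764 CPM in WT and 189, 252, 219 and 161 CPM in DMD (log2 fold change -1.89, SE 0.13, edgeR adjusted p = 5.77e-09). CXCL12, a homing signal for stem cells, was at 24.8, 51.6, 36.3 and 72.2 CPM in WT and 0, 3.50, 2.88 and 0 CPM in DMD (log2 fold change -4.73, SE 0.60, edgeR adjusted p = 1.30e-05), with -5.49 without DMD replicate 2. CCL19 had 32.4 to 58.6 CPM in WT and 0 to 4.67 CPM in DMD, a log2 fold change of -4.24 and -4.92 without DMD replicate 2. CCL2, the monocyte attractant, was higher, at 293, 202, 176 and 155 CPM in WT and 1038, 661, 649 and 942 CPM in DMD (log2 fold change 1.98, SE 0.24, edgeR adjusted p = 1.13e-04). TNFRSF1A, the main receptor of tumor necrosis factor, fell from 168–242 to 69.8–101 CPM (log2 fold change -1.31, SE 0.15, edgeR adjusted p = 2.07e-06). Of 24 genes of the interferon response and antigen presentation 13 were lower and 1 higher (median -0.87), and none was higher when any of 4 of the 8 libraries was left out. PSME1, an activator of the proteasome, was at 1028, 1405, 1074 and 1228 CPM and 472, 484, 425 and 526 CPM (log2 fold change -1.32, SE 0.11, edgeR adjusted p = 6.13e-08). IFI30, a lysosomal thiol reductase, fell from 558–713 to 144–252 CPM (log2 fold change -1.68, SE 0.15, edgeR adjusted p = 3.09e-07), IRF7, an interferon regulatory factor, from 45.3–63.4 to 12.6–20.2 CPM (log2 fold change -1.88, SE 0.23, edgeR adjusted p = 5.13e-06), and the class I gene SLA-3 from 109–184 to 40.8–79.3 CPM (log2 fold change -1.45, SE 0.22, edgeR adjusted p = 5.25e-05). The SLA class I genes are near-identical copies that counting may split. TNFSF10, the death ligand TRAIL, fell from 40.2–56.5 to 1.40–4.27 CPM (log2 fold change -3.98, SE 0.34, edgeR adjusted p = 7.06e-08).

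**Figure D3:**
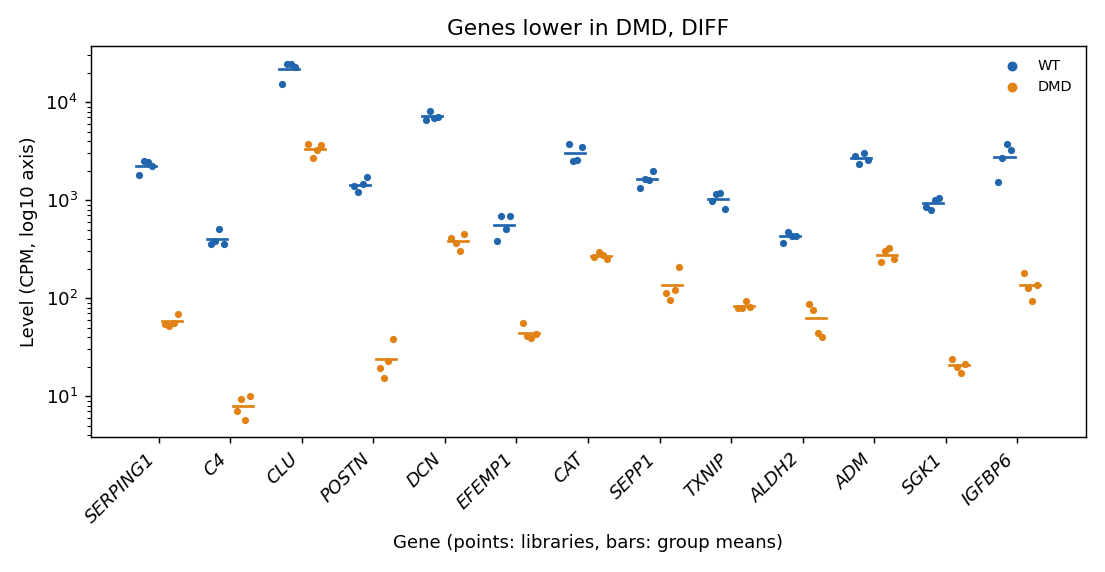
Level in each DIFF library of selected matrix, complement, antioxidant and signaling genes, all of them called lower in DMD. Matrix, complement and signaling genes called higher are not shown. Each point is 1 library (WT blue, DMD orange, 4 per genotype) on a log10 axis of CPM, and the short bar is the group mean. The 4 WT points lie above the 4 DMD points for every gene shown, as for SERPING1 with a log2 fold change of -5.29 and CAT with -3.50.

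Matrix genes moved both ways. Of 14 tested proteoglycans and matricellular proteins 5 were higher and 6 lower (median -0.74). POSTN, periostin, a matricellular protein of fibroblasts, was at 1384, 1207, 1458 and 1724 CPM in WT and 19.6, 15.2, 23.1 and 38.5 CPM in DMD (log2 fold change -5.93, SE 0.22, edgeR adjusted p = 1.44e-09). DCN, decorin, a collagen-binding proteoglycan, was at 6635 to 8186 CPM in WT and 306 to 453 CPM in DMD (log2 fold change -4.23). EFEMP1, a fibulin, was at 380.2, 683, 512 and 684 CPM and 56.1, 40.8, 38.9 and 42.7 CPM (log2 fold change -3.67, SE 0.20, edgeR adjusted p = 2.01e-08). The lowest WT library held 31.4, 14.6 and 6.78 times the highest DMD library for POSTN, DCN and EFEMP1. SPP1, osteopontin, rose from 1.38, 4.42, 3.89 and 6.81 CPM in WT to 102, 159.9, 330.0 and 55.6 CPM in DMD (log2 fold change 5.26, and 4.66 without DMD replicate 3), and was not called with limma-voom (adjusted p = 0.0555). Of 8 fibrillar collagens and their processing enzymes 2 were higher and 3 lower. COL3A1, collagen III, was at 4751, 4745, 4856 and 4939 CPM in WT and 1742, 1788, 1496 and 1254 CPM in DMD (log2 fold change -1.63, SE 0.11, edgeR adjusted p = 5.30e-09), while COL5A1 and COL5A2, chains of collagen V, rose from 22.0–36.8 to 84.0–114 CPM and from 619–792 to 1179–1769.8 CPM (1.64 and 1.08 on the log2 scale). LOX, which crosslinks collagen, fell from 1185–1691 to 409–729 CPM (log2 fold change -1.49, SE 0.18, edgeR adjusted p = 4.39e-05). Of 17 proteases and inhibitors of the matrix 8 were lower and 1 higher. MMP2, gelatinase A, fell from 256–318 to 55.6–88.3 CPM (log2 fold change -1.95, SE 0.14, edgeR adjusted p = 1.39e-08) and CTSL, cathepsin L, from 826–1144 to 315–399 CPM (log2 fold change -1.37, SE 0.11, edgeR adjusted p = 5.07e-08), whereas PLAT, tissue plasminogen activator, rose from 42.8–79.0 to 133–187 CPM (log2 fold change 1.47, SE 0.19, edgeR adjusted p = 1.00e-05).

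Several of the lowered matrix genes also mark fibroblasts and fibro-adipogenic progenitors. Of that list 12 of 27 genes were in the table. Of 11 tested, 7 were lower and 1 higher (median -1.63), and the summed level was 23520 to 26930 CPM in WT and 11390 to 14570 CPM in DMD. PI16, a marker of universal fibroblasts, was at 73.0, 76.7, 98.4 and 88.6 CPM in WT and 2.80, 4.67, 0 and 2.85 CPM in DMD (log2 fold change -4.94, SE 0.37, edgeR adjusted p = 1.57e-08). COL1A2, a chain of collagen I, was not called, and CD34 had 32 counts in WT and 2 in DMD. The endothelial list had 4 tested genes, 3 of them lower, and a sum of 107 to 168 CPM in WT and 40.9 to 58.4 CPM in DMD. Its members VWF, CLDN5, SELE and NOS3 had 0 to 4 counts per genotype, and PECAM1, the CD31 antigen used for depletion, was at 28.9 to 51.8 CPM in WT and 5.76 to 16.8 CPM in DMD (log2 fold change -2.01, SE 0.35, edgeR adjusted p = 1.43e-04). Of the leukocyte and blood list 2 of 18 genes could be tested and CD14 was lower, with CD3E, CD4, CD8A, HBB and NKG7 at 0 counts in both genotypes, and without WT replicate 2 the list also had 1 gene higher. The adipocyte list had 1 of 6 tested genes higher and 1 lower, CIDEA from 13.3–22.0 to 85.2–128 CPM and RBP4 from 26.5–77.7 to 1.17–4.20 CPM, with ADIPOQ and LPL at 0. Without 1 of the libraries, 2 adipocyte genes were higher in 5 of 8 cases and 2 lower in 2 of 8. Of the neural list 1 of 3 was higher and 1 lower, with MBP and SOX10 at 0, and the lower call, NEFL, was lost without DMD replicate 1, DMD replicate 4, WT replicate 2 or WT replicate 4. Of the cartilage and bone list SPP1 was higher and SOX9 lower, at 68.6 to 127 and 4.20 to 11.4 CPM. The part that other cell types play in the lower matrix and complement genes was not tested.

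Secreted signals of muscle growth moved both ways. Of 10 tested genes of the insulin-like growth factor axis 5 were higher and 2 lower. IGF1, the growth factor, was at 24.8, 38.3, 66.1 and 46.3 CPM in WT and 157, 141, 108 and 134 CPM in DMD (log2 fold change 1.61, SE 0.23, edgeR adjusted p = 3.95e-05), and its binding protein IGFBP6 at 1522, 2674, 3714 and 3262 CPM and 181, 128, 93.7 and 137 CPM (log2 fold change -4.38, SE 0.35, edgeR adjusted p = 2.88e-05). IGFBP7 rose from 3489–5058 to 7536–12022 CPM (log2 fold change 1.02, SE 0.15, edgeR adjusted p = 6.50e-05), and GRB10, an adaptor that dampens the receptor, from 76.3–112 to 185–259 CPM (log2 fold change 1.30, SE 0.15, edgeR adjusted p = 2.58e-06). For all 4 genes the genotypes did not overlap. In the TGF-β, BMP and activin group 5 of 20 were higher and 6 lower. TGFB3 was at 15.2, 11.8, 22.0 and 23.2 CPM in WT and 93.9, 87.5, 98.0 and 105 CPM in DMD (log2 fold change 2.39, SE 0.21, edgeR adjusted p = 1.25e-07), and CCN2, connective tissue growth factor and a target of TGF-β, rose from 19.1–34.4 to 65.5–102 CPM (log2 fold change 1.83, SE 0.22, edgeR adjusted p = 3.71e-06). TGFBR3, betaglycan, a co-receptor, fell from 29.5–47.9 to 1.17–5.76 CPM (log2 fold change -4.04, SE 0.43, edgeR adjusted p = 1.02e-06), and -4.84 without DMD replicate 3. FST, follistatin, which traps activin and myostatin, was at 44.1, 56.0, 32.4 and 66.8 CPM in WT and 4.20, 15.2, 7.21 and 4.27 CPM in DMD (log2 fold change -2.64, SE 0.38, edgeR adjusted p = 2.68e-05), and -3.24 without DMD replicate 2. MSTN, myostatin, the ligand it traps, lies outside the rule for named genes and was picked after its value was seen, a log2 fold change of 3.90 with 0 to 2.73 CPM in WT and 14.4 to 21.4 CPM in DMD.

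Other growth factors differed as well, 4 higher and 6 lower of 12. BDNF, a neurotrophin that muscle secretes, was at 1.38, 16.2, 10.4 and 10.9 CPM in WT and 43.4, 120.2, 190.2 and 35.6 CPM in DMD (log2 fold change 3.32, SE 0.76, edgeR adjusted p = 0.00889), and was not called with limma-voom (adjusted p = 0.0746). AREG, amphiregulin, a ligand of the epidermal growth factor receptor, was at 34.4, 10.3, 6.48 and 6.81 CPM in WT and 172, 212, 264 and 92.6 CPM in DMD (log2 fold change 3.66, SE 0.57, edgeR adjusted p = 0.00127), with 4.55 without WT replicate 1. The DMD libraries spread widely for both, and the lowest was still above every WT library. ANGPTL1 fell from 94.0–128 to 2.85–8.65 CPM (log2 fold change -4.03, SE 0.25, edgeR adjusted p = 2.13e-09). Of 5 Wnt and Notch genes 2 were higher and 1 lower. SFRP2, a secreted inhibitor of Wnt, was at 10985, 6968, 12837 and 12042 CPM in WT and 2730.1, 1934, 1644 and 2860.3 CPM in DMD (log2 fold change -2.23, SE 0.25, edgeR adjusted p = 9.12e-05), and DKK3 rose from 79.6–128 to 248–275 CPM (log2 fold change 1.27, SE 0.14, edgeR adjusted p = 1.48e-06). The relaxin gene RLN (RLN2) rose from 11.0, 13.3, 37.6 and 24.5 CPM in WT to 301, 536, 226 and 493 CPM in DMD (log2 fold change 4.15, SE 0.46, edgeR adjusted p = 1.89e-04). The galectin gene LGALS13 had no count in WT and 36.4, 16.3, 13.0 and 22.8 CPM in DMD. With 130 counts against none its scaled level was at least 46.5-fold higher in DMD with the empty group at 3 counts, or 23.2-fold with counts halved, and it was called in the edgeR test (adjusted p = 7.62e-06). SLC46A3, a lysosomal transporter, had 11.0, 17.7, 9.07 and 9.54 CPM in WT and none in DMD, at least 21.1-fold lower (edgeR adjusted p = 3.55e-05), or 10.6-fold with counts halved.

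Growth control and protein turnover held calls in both directions. Of 18 tested genes of the cell cycle 4 were higher and 2 lower, with MKI67, PCNA and CDK1 not called. CKS1B, a cyclin kinase subunit, fell from 262–315 to 119.7–157 CPM (log2 fold change -1.10, SE 0.11, edgeR adjusted p = 5.43e-07), and CCND2, a cyclin of growing myoblasts, rose from 463–595 to 751–1064 CPM (log2 fold change 0.84, SE 0.11, edgeR adjusted p = 1.36e-05). Of 11 targets of p53 and growth arrest genes 4 were higher and none lower, among them PERP, from 17.7–27.5 to 34.6–60.7 CPM (log2 fold change 1.21, SE 0.26, edgeR adjusted p = 8.86e-04). The apoptosis list had 3 higher and 3 lower of 14, with 1 higher without DMD replicate 1. Chaperones had 4 higher and 2 lower of 23. The lower count became 4 without DMD replicate 2 or WT replicate 1 and 0 with libraries scaled to their totals. The proteasome and ubiquitin list had 3 higher and 1 lower of 18, with none lower without WT replicate 1 and 7 higher with libraries scaled to their totals. HSP90AA1, a stress chaperone, rose from 233–306 to 402–538 CPM (log2 fold change 0.76, SE 0.11, edgeR adjusted p = 2.91e-05), and XBP1, of the unfolded protein response, fell from 449–534 to 280.3–330.5 CPM (log2 fold change -0.74, SE 0.10, edgeR adjusted p = 8.21e-06), a call lost with libraries scaled to their totals. Of 26 lysosome and autophagy genes none was higher and 7 were lower (median -0.38, 4 lower with libraries scaled to their totals). LAMP2, a lysosomal membrane protein, was at 161, 147, 149 and 129 CPM in WT and 56.1, 49.0, 67.7 and 52.7 CPM in DMD (log2 fold change -1.39, SE 0.15, edgeR adjusted p = 8.36e-07). Of 5 immediate-early genes KLF4 was lower, from 193–214 to 44.8–68.9 CPM (log2 fold change -1.87, SE 0.14, edgeR adjusted p = 1.86e-08), and KLF2 higher (log2 fold change 0.87, SE 0.33, edgeR adjusted p = 0.0399), a call lost in 7 of the 8 fits without 1 library.

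**Figure D4:**
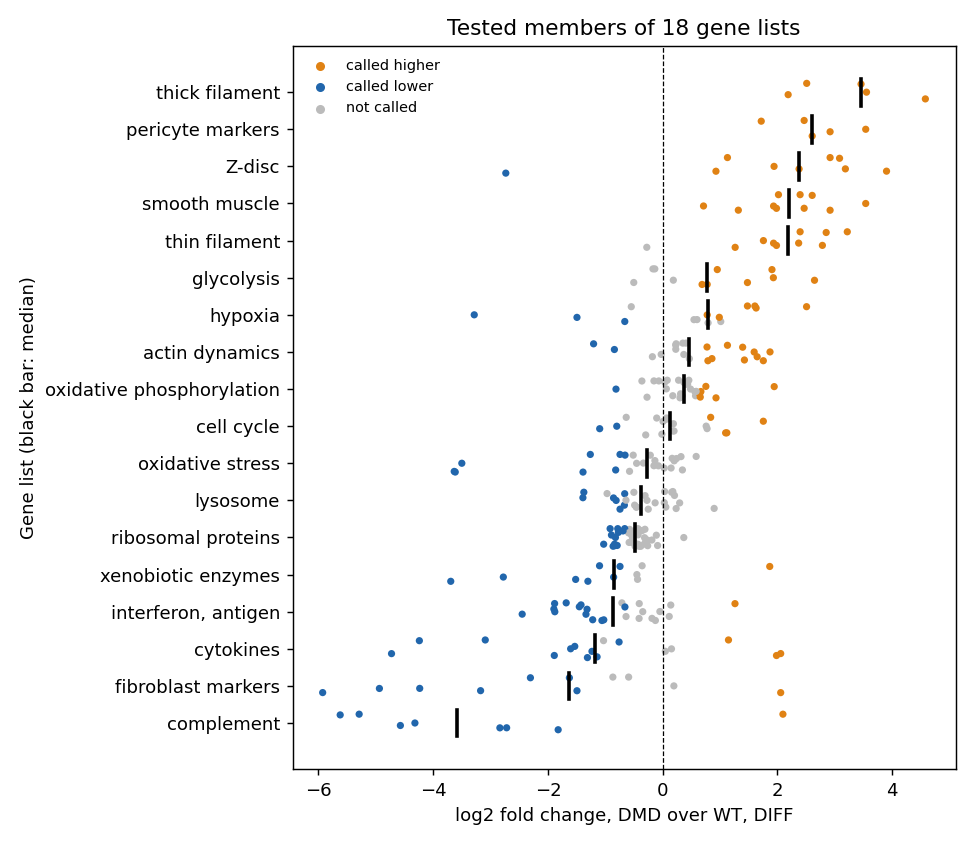
Log2 fold change of DMD over WT in DIFF for tested members of 18 gene lists. Each point is 1 gene, filled orange if called higher, blue if called lower and grey otherwise, the black bar is the list median and the dashed line is 0. Medians run from 3.46 for the thick filament to -3.58 for complement.

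The state of the cells entered through the interaction, the genotype effect in DIFF minus that in PROL on the log2 scale, fitted over all 16 libraries. Of 2030 genes 476 (23.4%) were called, 213 with a more positive effect in DIFF and 263 with a more negative one. Of the 308 genes higher in DIFF, 139 had a more positive effect there than in PROL, 19 a less positive one and 150 no call. Of the 335 lower genes, 154 had a more negative effect in DIFF, 7 a less negative one and 174 no call. With libraries scaled to their totals, 387 genes had a more positive and 134 a more negative effect. DMD PROL replicate 4 stood apart, with 20.4% of its counts in RN18S against 6.32% to 9.49% in the other PROL libraries, and 0.366% in the thick filament list against 0.653% to 0.768% in the other DMD PROL libraries. Without it 455 genes were called, 220 positive and 235 negative, and with RN18S removed before scaling 475. Both alternatives were chosen after the data were seen.

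Of 6 thick filament genes tested 3 had a negative interaction and none a positive one. The thin filament list had 4 negative and 2 positive of 10, the positive ones being the tropomyosins TPM1 and TPM2, and the Z-disc and costamere list 3 negative and 2 positive of 10. Of 10 smooth muscle genes 9 had a positive interaction, TPM1 and TPM2 among them, and 1, DES, which is also in the Z-disc list, a negative one. Without DMD PROL replicate 4 the thin filament list had 6 negative and 2 positive, and the thick filament, Z-disc and smooth muscle counts called in each direction were as before. MYL1 was at 74.5 to 109 CPM in WT and 1489 to 2573 CPM in DMD already in PROL, and its interaction was -2.40 (SE 0.30, edgeR adjusted p = 3.05e-05). MYLPF, at 68.5 to 141 and 2318 to 4230.3 CPM in PROL, gave -2.45 (SE 0.33, edgeR adjusted p = 6.92e-05). The genotypes were thus further apart for the light chains in PROL than in DIFF. TAGLN was at 1291 to 2033 CPM in WT and 1107 to 1491 CPM in DMD in PROL, where the ranges overlapped, with an interaction of 2.69 (SE 0.34, edgeR adjusted p = 3.63e-05), and CNN1 at 11.2 to 29.4 and 4.93 to 12.8 CPM, also with overlap, with 3.74 (SE 0.91, edgeR adjusted p = 0.00752). For both genes the ranges of the genotypes were apart in DIFF and overlapped in PROL, where the genotype effect by itself was not tested. SLN gave -4.25 (SE 1.04, edgeR adjusted p = 0.00571), from 0 to 2.18 and 14.4 to 64.5 CPM in PROL. For DMD itself, at 3.26 to 4.62 and 14.8 to 19.7 CPM in PROL, the interaction of -0.97 (SE 0.44, edgeR adjusted p = 0.105) was not called.

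**Figure D5:**
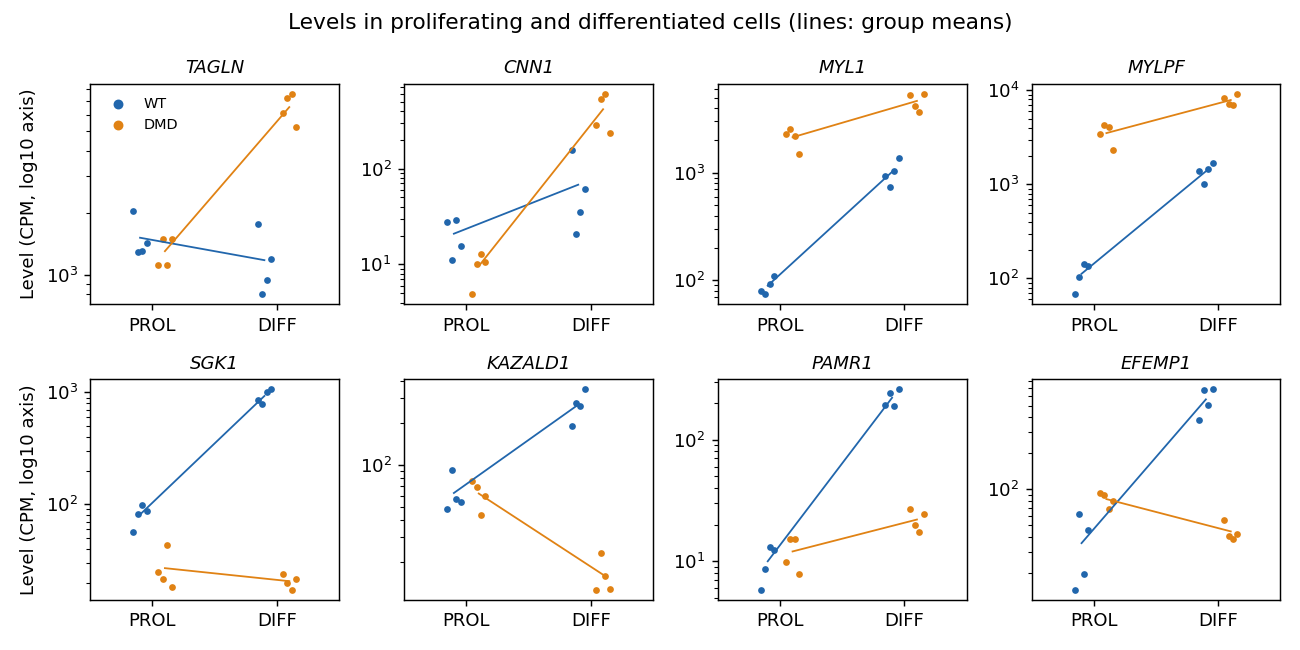
Level in both states for 8 genes whose genotype effect differed between PROL and DIFF. Each point is 1 library (WT blue, DMD orange, 4 per genotype and state) on a log10 axis of CPM, and lines join the group means. The interaction was 2.69 for TAGLN and -2.40 for MYL1 on the log2 scale.

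Several signaling genes had a positive interaction. BDNF, at 20.4 to 108 CPM in WT and 0 to 17.5 CPM in DMD in PROL, gave an interaction of 6.13 (SE 1.20, edgeR adjusted p = 0.00166). PTGS2, cyclooxygenase 2, the inducible enzyme of prostaglandin synthesis, was at 23.6 to 228 and 8.62 to 21.0 CPM in PROL and at 0 to 4.13 and 2.85 to 14.0 CPM in DIFF, with 5.67 (SE 1.23, edgeR adjusted p = 0.00294). Neither overlapped in PROL, where DMD was the lower genotype. IGF1, at 4.62 to 55.5 and 1.17 to 5.06 CPM in PROL, and AREG, at 106 to 379 and 139 to 349 CPM, overlapped there, with interactions of 4.84 (SE 0.97, edgeR adjusted p = 0.00162) and 4.20 (SE 0.80, edgeR adjusted p = 0.00144). EFEMP1 ran the other way, at 14.6 to 62.1 CPM in WT and 68.8 to 93.6 CPM in DMD in PROL, with -4.88 (SE 0.48, edgeR adjusted p = 4.09e-06).

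Other genes lay close in PROL and far apart in DIFF. KAZALD1, a secreted protein related to the insulin-like growth factor binding proteins, was at 48.1 to 91.9 and 43.1 to 76.4 CPM in PROL and at 191, 279, 264 and 349 CPM in WT and 12.6, 23.3, 15.9 and 12.8 CPM in DMD in DIFF. Its interaction was -4.02 (SE 0.35, edgeR adjusted p = 2.94e-08). PAMR1, a secreted peptidase-domain protein linked to muscle regeneration, was at 5.83 to 13.1 and 7.88 to 15.2 CPM in PROL and at 194, 240.3, 190.4 and 259 CPM in WT and 26.6, 19.8, 17.3 and 24.2 CPM in DMD in DIFF, with -3.59 (SE 0.35, edgeR adjusted p = 8.40e-08). PAMR1 was thus higher in DIFF than in PROL in both genotypes, and KAZALD1 in WT only, its DMD values lying lower in DIFF than in PROL. SGK1, already apart in PROL at 56.8 to 97.9 and 18.4 to 43.1 CPM, gave -3.91 (SE 0.31, edgeR adjusted p = 1.82e-08). Of the 45 ribosomal protein genes 24 had a negative interaction and none a positive one (median -0.64). With libraries scaled to their totals 7 had a negative one and none a positive one (median -0.36). Without DMD PROL replicate 4 the count was 22 negative (median -0.65). They took 32.9% to 36.4% of the counts in WT PROL and 30.03% to 36.1% in DMD PROL, where replicate 4 was the lowest and the other 3 lay at 34.7% to 36.1%, with overlap, against the separate ranges in DIFF.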

How the data were processed

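RNA of satellite cells was sequenced as 3′ libraries with molecular identifiers, each sample in 2 technical duplicates. The authors demultiplexed with bcl2fastq, checked reads with FastQC and MultiQC, removed duplicate molecules with UMI-tools, aligned to susScr3 and counted reads per gene with STAR 2.7.10b (with R 4.1.2, versions per the submitters' processing notes), and deposited raw counts. The gene annotation and strand setting are not given in the sources used here. All 124000 deposited counts are even numbers, and the cause was not tested.

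The technical columns of a sample were added, and 0 columns belonged to another series. Genes were kept by filterByExpr by group (minimum count 10, minimum total 15), scaled with TMM and tested with robust glmQLFit and glmQLFTest (R 4.3.3, edgeR 4.0.16, limma 3.58.1, DESeq2 1.42.0). A gene with enough counts in 1 group alone was thus kept. A call needed a Benjamini-Hochberg adjusted p below 0.05 and an absolute log2 fold change above 0.6. The SE is the absolute log2 fold change divided by the square root of F. Fold bounds against an empty group use a floor of 3 counts over the group and the summed counts of the other group. The SE of the DIFF comparison includes the spread between animals. The bounds cover neither that spread nor the counting error of the group with counts. The scripts were run on simulated data in which genes changed in random directions. That setting does not check how scaling handles a shift of many genes in 1 direction. Totals of 1434476 to 1781174 counts per DIFF library limit the precision for low genes.

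A few genes that the rule names are not reported here. Genes were named by a rule: genes the study names, the 12 largest fold changes and the 10 largest differences of mean CPM in each direction without overlap, the 5 smallest p in each list, genes at 0 in 1 group with at least 40 counts in the other, and the 6 largest interactions in each direction. The members, lists and tests were chosen with earlier results of these data known. Same-numbered WT and DMD libraries came from different animals and were not treated as pairs in the main fit. Of the 8 DIFF libraries, 5 correlated best with their own number in the other genotype. Each had 4 candidates there, and why the numbers matched this often was not tested. Deviations of same-numbered libraries had correlations of -0.00796 to 0.0909. PROL and DIFF libraries of 1 animal had 0.0965 to 0.172. Each DIFF library is 1 animal, so that p-values of the DIFF comparison measure the spread between animals of these groups. The interaction holds a PROL and a DIFF library of each animal, which its main fit treated as independent. With the animal as a block 492 genes were called for the interaction, against 476 without it. Alternatives were other scalings, filters and tools, single technical columns, halved counts, removal of RN18S, a replicate block and leaving out each library.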

Additional observations from a re-analysis of the deposited data

Results flagged for a closer look

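Both DIFF groups of each named gene were checked for 1 library far from the other 3. Of the named genes, 194 were tested in DIFF. Dixon's critical value marks about 1 in 20 groups by chance, so that part of the cases below is expected by chance. In 30 cases the gap of 1 library to the nearest one was a larger share of the group's range than that value. In WT these were KLF4 in replicate 3 (193 CPM), EIF4A2 in replicate 1 (599 CPM), UBE2L3 in replicate 2 (318 CPM), PLAU in replicate 4 (820 CPM), SLPI in replicate 3 (81.6 CPM), NDUFB2 in replicate 1 (377 CPM), KLF2 in replicate 4 (31.3 CPM), LOX in replicate 1 (1185 CPM), PHGK in replicate 4 (12.3 CPM), FABP5 in replicate 1 (28.9 CPM), TRIM63 in replicate 2 (0 CPM) and AREG in replicate 1 (34.4 CPM). In DMD replicate 1 they were CTSL (315 CPM), SGCA (64.5 CPM), RBP4 (4.2 CPM), ID1 (119 CPM) and MYBPH (82.7 CPM). In DMD replicate 2 they were FBP1 (1.17 CPM), COX7A1 (175 CPM) and ASB9 (1.17 CPM). In DMD replicate 3 they were DDIT4 (502 CPM), P4HA1 (1098 CPM), DKK3 (275 CPM), TXNIP (93.7 CPM) and TGFBR3 (5.76 CPM). In DMD replicate 4 they were ACTA2 (10349 CPM), RPS20 (19979 CPM), RPS26 (10722 CPM), FITM1 (71.2 CPM) and ANGPTL1 (2.85 CPM).

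For 17 genes named by the rule the genotype effect differed between DIFF and PROL, tested by the interaction over 16 libraries with edgeR. The effect was more positive in DIFF for BDNF (6.13), PTGS2 (5.67), IGF1 (4.84), SPP1 (4.61), AREG (4.20), RGS5 (3.90), CNN1 (3.74) and TAGLN (2.69), as log2 differences. It was more negative for SLC46A3 (-8.02), EFEMP1 (-4.88), SLN (-4.25), KAZALD1 (-4.02), PDK4 (-4.00), SGK1 (-3.91), PAMR1 (-3.59), MYLPF (-2.45) and MYL1 (-2.40). The value of SLC46A3 depends on the prior count, since its DMD libraries in DIFF hold no count. Leaving out each of the 16 libraries in turn, chosen after the data were seen, ended the call of RGS5 in 7 cases (DMD DIFF replicates 3 and 4, WT DIFF replicates 1 and 4, and DMD PROL replicates 1, 2 and 4) and of PDK4 in 4 (DMD DIFF replicate 3, DMD PROL replicates 1 and 2, and WT PROL replicate 1). The interaction became 3.04 for RGS5 without DMD DIFF replicate 3 and -3.14 for PDK4 without DMD PROL replicate 2. Called values that moved by over 1.5 times were, without WT DIFF replicate 1, CNN1 (4.53), AREG (5.08) and PTGS2 (7.10); without WT PROL replicate 3, IGF1 (3.52), BDNF (5.53), PTGS2 (4.99), SLN (-5.19), PDK4 (-4.70) and RGS5 (3.23); without DMD PROL replicate 2, IGF1 (5.63); without DMD PROL replicate 3, BDNF (6.98); and without DMD DIFF replicates 2 and 3, PDK4 (-4.63) and SPP1 (4.00).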

How the results depend on the processing

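The count of genes called in DIFF was 643 and ran from 523 with the first technical column alone to 716 with no filter, and was 654 with library size alone, 647 with DESeq2 size factors, 650 with the DESeq2 test and 636 with limma-voom. Without 1 library it ran from 615 to 657, with 297 to 322 higher, 314 to 340 lower and 394 to 428 over 2-fold (main counts 308, 335 and 404). Library size alone moved the interaction counts from 213 to 387 in the positive and from 263 to 134 in the negative direction, with 521 against 476 in all. Leaving out 1 of the 16 libraries, an alternative added after seeing the data, the interaction ran from 446 to 492 calls, 207 to 233 positive and 235 to 259 negative. No called value changed direction in any alternative run. Of 4030 values of named genes under 21 other settings, 3973 kept direction and side of the threshold, 54 lost the call and 3 gained it. Removing RN18S and ribosomal protein genes before scaling, an alternative chosen after seeing the data, gave 634 calls. With replicate numbers as a replicate block 629 genes were called, with animal as the block 492 for the interaction, and 5 of 8 DIFF libraries correlated best with their own number in the other genotype. The block ended the calls of NEFL and CNN1. The median of the TGF-β, BMP and activin list was -0.06 and became 0.07 with library size alone. At this depth genes with few counts, such as MYOD1 or MYF6, could not be tested. The cause of these shifts was not tested.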

Other observations

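Of the 643 called genes 385 belonged to none of the gene lists, 185 higher and 200 lower in DMD. The following were chosen after their values were seen. Among the higher ones were enzymes of amino acid synthesis. ASNS, asparagine synthetase, was at 359.5, 430.5, 311 and 341 CPM in WT and 1320.2, 1165, 1167 and 1541 CPM in DMD (log2 fold change 1.84, SE 0.12, edgeR adjusted p = 3.16e-09), and PSPH, the last enzyme of serine synthesis, at 172, 200.5, 144 and 169 and 444, 398, 481 and 481 CPM (log2 fold change 1.39, SE 0.11, edgeR adjusted p = 4.13e-08). GLRX, glutaredoxin, was at 123, 95.8, 106 and 84.5 and 454, 415, 539 and 416 CPM (log2 fold change 2.15, SE 0.13, edgeR adjusted p = 1.03e-09), and GJA1, the gap junction protein connexin 43, at 298, 189, 246 and 239.8 and 563, 549.7, 650.0 and 607 CPM (log2 fold change 1.28, SE 0.12, edgeR adjusted p = 2.18e-07). No value of one genotype entered the range of the other for these genes.

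Among the lower ones were LGALS3, galectin-3, at 2701, 2497, 2561 and 1932 CPM in WT and 478, 492, 517 and 521 CPM in DMD (log2 fold change -2.28, SE 0.11, edgeR adjusted p = 7.31e-11), and CDH11, a cadherin of mesenchymal cells, at 1452, 1524, 1395 and 1649 and 234, 308, 222 and 168 CPM (log2 fold change -2.69, SE 0.15, edgeR adjusted p = 3.16e-09). MITF, a transcription factor of lysosome and pigment cell genes, was at 73.0, 94.3, 75.1 and 91.3 and 16.8, 12.8, 14.4 and 11.4 CPM (log2 fold change -2.59, SE 0.21, edgeR adjusted p = 4.42e-08). HMGA1, a chromatin protein of proliferating cells, was at 412, 357, 453 and 489 and 96.7, 131, 105 and 144 CPM (log2 fold change -1.85, SE 0.14, edgeR adjusted p = 1.86e-08), while in PROL it was at 743 to 1011 CPM in WT and 1546 to 2247 CPM in DMD, in the opposite order. These genes did not overlap between the genotypes in DIFF.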
